A study of Homo sapiens with 24 samples.

Results

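The genes of MHC class I antigen presentation were followed across 8 conditions of a pair of ovarian cancer cell lines. The 9 genes described here, of 28277 listed in each of the 2 count tables, were chosen by name as the class I heavy chains HLA-B, HLA-C, HLA-E and HLA-F, the light chain B2M, the peptide transporter subunits TAP1 and TAP2, the loading factor TAPBP and the immunoproteasome subunit PSMB9. MHC class I molecules carry short peptides from inside the cell to its surface, where cytotoxic T cells and natural killer cells read them. Peptides are cut by the proteasome, pumped into the endoplasmic reticulum by the TAP1 and TAP2 heterodimer, trimmed by ERAP1 and ERAP2, and loaded with the help of tapasin (TAPBP) and calreticulin onto a heavy chain paired with beta-2-microglobulin. Interferon signalling, including through IRF1, NF-kB and the transactivator NLRC5 are the best known inducers of these genes, and tumour cells often lower them.

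RNA-seq libraries were made in triplicate from PEO1 and PEO4, high-grade serous ovarian carcinoma lines derived from 1 patient before and after resistance to chemotherapy. The A pair held untreated PEO1, which is BRCA2-deficient in the study although its label reads WT, and untreated PEO4 (label WT). The B pair held PEO1 with the genotype BRCA2+, a line in which BRCA2 function returned by spontaneous reversion, and PEO4 (label WT), each either untreated or exposed to 5 µM pyridostatin (PDS), a small molecule that binds G-quadruplex DNA, for 2 h or 6 h. Each line stands for a single tumour, the study calls its triplicates biological replicates, and p-values measure only the spread between these libraries of 1 line. Levels are given as CPM, the count of a gene relative to the library total with TMM scaling within each table, so they were not compared between the A and B pairs except in 1 joint fit.

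Library totals ran from 18699929 to 63882077 counts over the 24 libraries. Within the B pair, the 6 untreated libraries held 18699929 to 22375644 counts and the 12 PDS libraries 33260167 to 43713947, and ribosomal RNA genes took 0.217 to 0.4735% of counts in the former against 0.0164 to 0.0369% in the latter. Depth and ribosomal RNA share therefore moved with treatment, and their part in the PDS results was not tested. Epithelial markers were detected throughout but did not move alike. EPCAM had group means of 312 to 571 CPM. In the B pair MUC16 went from 545 CPM in untreated PEO4 to 51.6 CPM at 6 h of PDS, and from 413 to 68.7 CPM in PEO1. KRT7 stood at 1918 CPM in PEO1 and 293 CPM in PEO4 of the A pair. Of 8 leukocyte markers 4, among them PTPRC, CD3E and MS4A1, had at most 3 counts in any library. Of those, CD3E and MS4A1 were at 0 in all 24 libraries, and the summed leukocyte markers, led by CD68, lay between 28.6 and 84.0 CPM. In bulk RNA, fewer cells of a type and less RNA per cell cannot be told apart.

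Before the levels are read, the place of these genes in the genome matters. In hg38 with GENCODE release 44, 8 of the genes lie in the MHC on chromosome 6, namely HLA-F (chr6:29722775-29738528, plus strand), HLA-E (chr6:30489509-30494194, plus), HLA-C (chr6:31268749-31272130, minus), HLA-B (chr6:31353872-31367067, minus), TAP2 (chr6:32821833-32838739, minus), PSMB9 (chr6:32844136-32859851, plus), TAP1 (chr6:32845209-32853816, minus) and TAPBP (chr6:33299694-33314284, minus). B2M lies at chr15:44711358-44718851 on the plus strand. All of them are also present, in full or in part, on alternate scaffolds of hg38, which are second copies of polymorphic regions. The exons of each gene were therefore cut into every overlapping stretch of 75 bases, and each stretch was looked up on the 261 alternate scaffolds of the given hg38. The paired-end reads of the study were longer than a stretch, and stretches across exon junctions were not looked up. The shares therefore do not give the share of read pairs that could be placed. For HLA-E, TAP1, TAPBP and PSMB9 all stretches (100%) were found there. The share was 98.4% for TAP2, 92.7% for HLA-F, 89.2% for B2M, 86.0% for HLA-C and 60.4% for HLA-B.

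Low counts followed this share across the genome. Of 451 protein-coding genes with every stretch on an alternate scaffold, 369 (81.8%) had at most 3 counts in all 24 libraries, against 2264 of 16930 genes (13.4%) with none. The share was 54 of 179 genes (30.2%) at 90 to under 100% of stretches. At over 0 to under 90%, where HLA-B, HLA-C and B2M fall, it was 187 of 1469 (12.7%). In the interval from HLA-F to TAPBP, which holds HLA-B and HLA-C, it was 2 of 9 genes of this class (22.2%). The median over these 9 genes of their median count was 6.5, against 381 over the 1469. Between the first and last of the 8 genes on chromosome 6, 86 of 140 protein-coding genes (61.4%) had at most 3 counts throughout. Among them were genes that nearly every cell uses. 10 such genes of this interval, picked after their values were seen, had at most 16 counts in any library, and 7 of the 10 had at most 3, including ABCF1, LSM2 and NELFE at 0. A damaged line in the table of the A pair names 8 alternate scaffolds among the places of 1 gene, so the annotation used for counting held such scaffolds. How reads with several equal placements were counted is not given in the sources used here, and the part of this in the counts was not tested. Accordingly a 0 for one of these genes is written as listed at 0, and levels were not compared between genes.

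**Figure D1:**
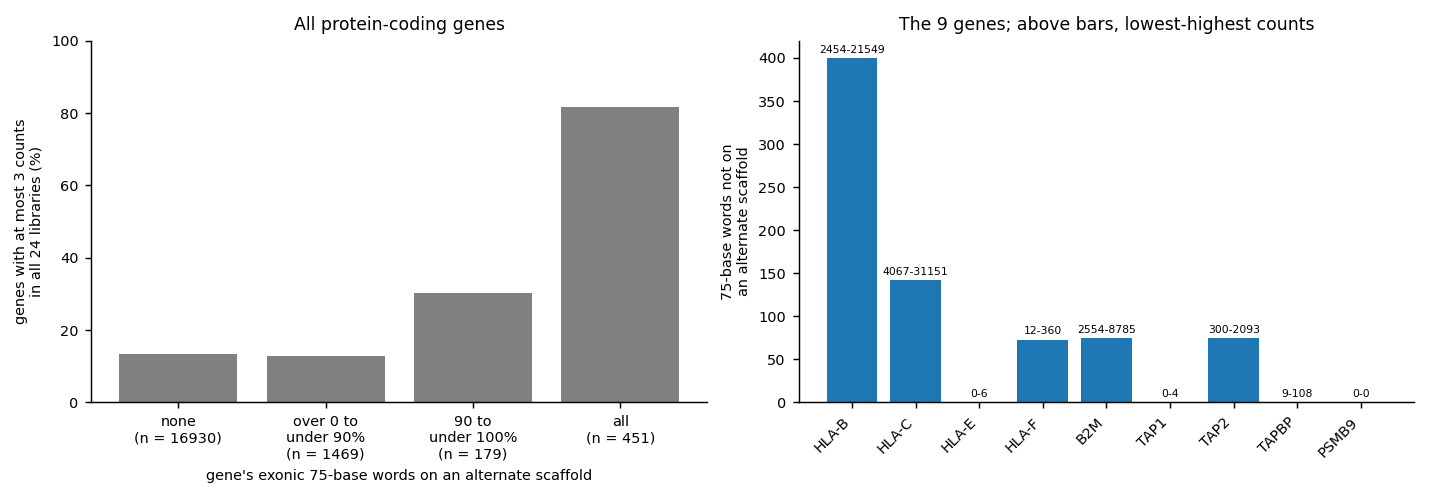
Left, percent of protein-coding genes with at most 3 counts in all 24 libraries, by the share of their exonic 75-base stretches found on hg38 alternate scaffolds, with 13.4% for none and 81.8% for all. Right, the number of stretches of each of the 9 genes not found there (bars), with the lowest and highest count over the 24 libraries printed above; the 4 genes without any such stretch had at most 108 counts.

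The stretches shown here are examples, taken from the middle of the longest coding segment of each gene. Each is 75 bases of coding exon from hg38, 5′ to 3′ on the gene's strand. The PSMB9 stretch (chr6:32858397-32858471, plus) occurs on 7 alternate scaffolds and the HLA-E stretch (chr6:30490340-30490414, plus) on 6.
PSMB9: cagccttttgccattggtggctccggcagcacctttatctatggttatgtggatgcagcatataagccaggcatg
HLA-E: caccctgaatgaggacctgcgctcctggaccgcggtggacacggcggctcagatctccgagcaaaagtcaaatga
For HLA-B (chr6:31355417-31355491, minus) and HLA-C (chr6:31270310-31270384, minus) the matching stretch of the heavy chain differs at 6 of 75 bases, given in capitals, and each occurs on 1 alternate scaffold.
HLA-B: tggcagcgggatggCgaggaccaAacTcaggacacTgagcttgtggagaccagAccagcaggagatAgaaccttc
HLA-C: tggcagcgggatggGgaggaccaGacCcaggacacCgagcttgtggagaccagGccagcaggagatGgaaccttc
None of the 75-base stretches of the HLA-B transcript and 1.98% of those of HLA-C were shared with transcripts of other genes. For TAP2 the share was 35.0%, nearly all with an overlapping read-through gene, so its counts are uncertain to that extent. The stretches of TAP2 and of B2M that no alternate scaffold held numbered 75 each. They surround a single base in the untranslated part of the last exon, at chr6:32826204 for TAP2 and at chr15:44717814 for B2M.

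The results divide by line. CPM values of HLA-B, HLA-C, HLA-F, B2M and TAP2 were higher in untreated PEO4 than in untreated PEO1 in both pairs. For B2M in the B pair the edgeR adjusted p was 0.0840 without the third untreated PEO4 library. At 6 h of PDS the first 4 of these genes were lower in PEO4 than in its untreated cells, while TAP2 was higher. Most stretches of these genes are also on alternate scaffolds, from 60.4% for HLA-B to 98.4% for TAP2. Whether their counts follow the RNA of the whole gene was not tested. The counts listed for TAPBP moved the same way as HLA-F, but all its stretches are on alternate scaffolds. In PEO1 of the B pair no gene of the set was called with all libraries in the fit. HLA-E, TAP1 and PSMB9 did not pass the filter on low counts, so 6 of the 9 genes were tested. In what follows, a gene is called when edgeR's quasi-likelihood test gives a Benjamini-Hochberg adjusted p under 0.05 over all genes and the absolute log2 fold change exceeds 1.

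**Figure D2:**
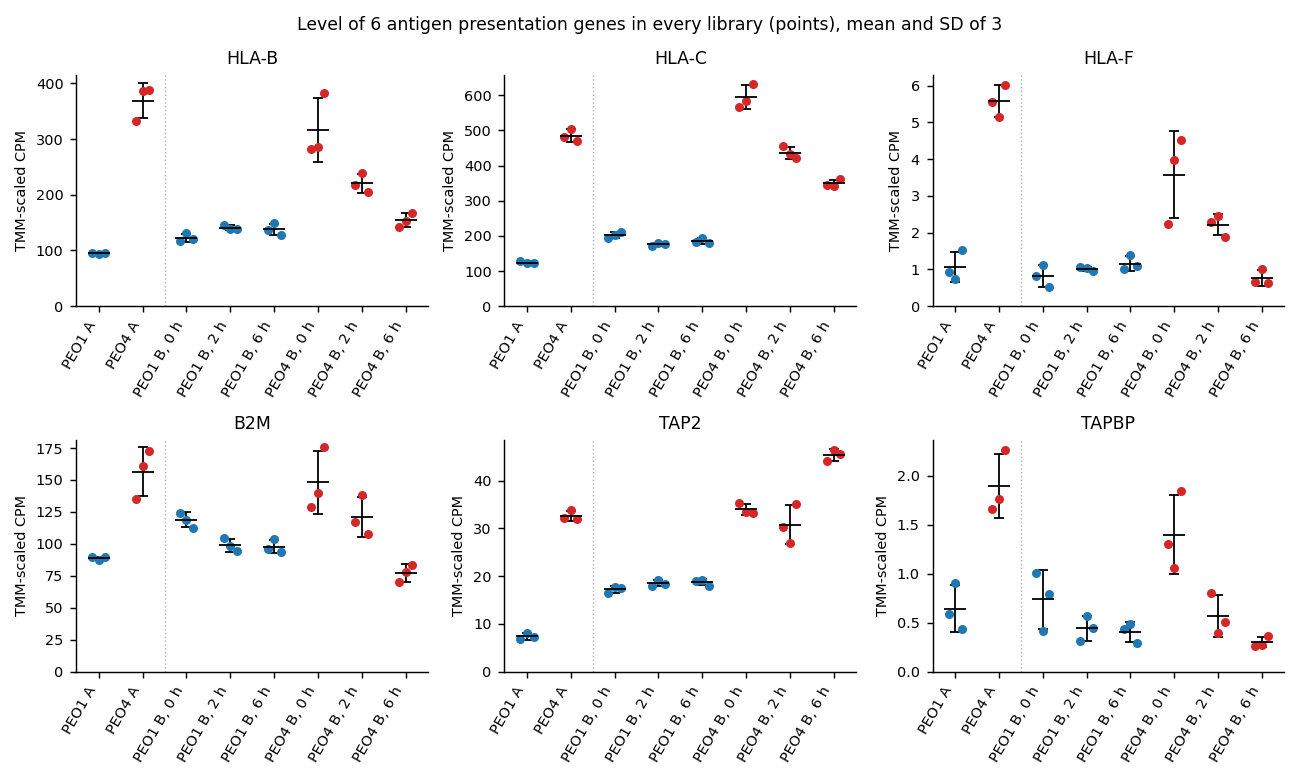
TMM-scaled CPM of the 6 tested genes in each of the 24 libraries (points; blue, PEO1; red, PEO4), with the mean and SD of 3 libraries as black bars. The dotted line parts the A and B tables, which were scaled separately, and 0 h marks untreated cells; HLA-B fell from a mean of 317 CPM in untreated PEO4 of the B pair to 154 CPM at 6 h of PDS, while PEO1 stayed between 123 and 141 CPM.

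HLA-B, a classical heavy chain that presents peptides to CD8+ T cells, stood at 96.0, 93.1 and 95.3 CPM in the 3 PEO1 libraries of the A pair and at 332, 386 and 388 CPM in PEO4. In untreated cells of the B pair it stood at 118, 131 and 120 CPM in PEO1 and at 282, 285 and 382 CPM in PEO4. All PEO4 libraries lay above all PEO1 libraries in both pairs. The log2 fold change of PEO4 over PEO1 was 1.96 (SE 0.082, adjusted p = 9.54e-10, 3.89-fold) in the A pair and 1.36 (SE 0.099, adjusted p = 3.19e-10, 2.57-fold) in the B pair. After PDS, PEO4 of the B pair gave 218, 238 and 205 CPM at 2 h and 142, 154 and 168 CPM at 6 h, so that the time points did not overlap with each other or with untreated cells. PEO1 gave 146, 139 and 139 CPM at 2 h and 137, 149 and 129 CPM at 6 h, the former just above its untreated libraries.

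In PEO4, HLA-B fell by 0.52 on the log2 scale at 2 h (SE 0.096, adjusted p = 9.86e-05) and by 1.04 at 6 h (SE 0.097, adjusted p = 1.50e-08), and only the later change passed 2-fold. Without the third untreated PEO4 library, the highest of its group, the fall at 6 h was 0.87, and without the first PEO4 library at 6 h it was 0.97, both short of 2-fold with adjusted p under 0.05. In PEO1 the changes were 0.20 (adjusted p = 0.0964) and 0.17 (adjusted p = 0.162). At 6 h the lines no longer differed past the threshold, with a log2 fold change of 0.16 (SE 0.097, adjusted p = 0.147).

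HLA-C, the classical heavy chain that is also a ligand of inhibitory receptors on natural killer cells, gave 129, 122 and 122 CPM in PEO1 and 480, 505 and 471 CPM in PEO4 of the A pair. In the B pair the untreated values were 195, 203 and 212 CPM in PEO1 and 567, 585 and 633 CPM in PEO4. The lines were again apart in every library, by a log2 fold change of 1.97 (SE 0.075, adjusted p = 4.27e-10) in the A pair and 1.55 (SE 0.056, adjusted p = 1.02e-17) in the B pair. PDS took PEO4 to 456, 432 and 421 CPM at 2 h and to 346, 343 and 361 CPM at 6 h, log2 changes of -0.45 (SE 0.055, adjusted p = 1.12e-07) and -0.77 (SE 0.055, adjusted p = 8.06e-12). PEO1 gave 172, 179 and 176 CPM at 2 h and 183, 195 and 180 CPM at 6 h. There the change at 2 h was -0.21 (SE 0.055, adjusted p = 0.00285) and at 6 h -0.13 (adjusted p = 0.0556). Unlike HLA-B, HLA-C stayed higher in PEO4 than in PEO1 at 6 h, by 0.91 on the log2 scale (SE 0.055, adjusted p = 2.10e-13).

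HLA-F, a nonclassical heavy chain that can reach the surface without peptide, rested on few counts. The A pair gave 45, 28 and 81 counts in PEO1 (1.07 ± 0.40 CPM, SD, n = 3) and 360, 182 and 197 in PEO4 (5.58 ± 0.44 CPM). The B pair gave 17, 27 and 12 counts in untreated PEO1 (0.819 ± 0.294 CPM) and 52, 79 and 98 in untreated PEO4 (3.58 ± 1.18 CPM). PEO4 was higher by 2.36 on the log2 scale in the A pair (SE 0.25, adjusted p = 4.58e-06) and by 2.11 in the B pair (SE 0.28, adjusted p = 3.19e-07), without overlap of libraries.

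Under PDS, HLA-F in PEO4 stood at 2.31, 2.46 and 1.90 CPM at 2 h and 0.668, 1.01 and 0.629 CPM at 6 h, log2 changes of -0.68 (SE 0.23, adjusted p = 0.0108) and -2.22 (SE 0.26, adjusted p = 4.54e-08). Without the third untreated PEO4 library the 2 h value did not pass (adjusted p = 0.101). The 6 h value was called, as was the change of -1.53 from 2 h to 6 h (adjusted p = 1.80e-05). In PEO1 the values of 0.955 to 1.40 CPM under PDS did not separate from the untreated 0.527 to 1.11 CPM. By 6 h the gene was at 0.768 CPM in PEO4 and 1.16 CPM in PEO1 (log2 fold change -0.60, SE 0.28, adjusted p = 0.0636). An antisense gene overlaps HLA-F, and the use of strand in counting is not given in the sources used here.

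HLA-E, the nonclassical heavy chain that presents leader peptides to natural killer cells, had 0 counts in 15 libraries and between 1 and 6 in the others. The 3 PEO4 libraries of the B pair at 2 h of PDS held 1, 6 and 4 counts and were the only group without a library at 0. The gene has no stretch that an alternate scaffold lacks, and no fold is given.

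B2M, the light chain that every class I heavy chain needs, differed less between lines than the heavy chains did. The A pair gave 89.7, 87.6 and 89.3 CPM in PEO1 and 135, 161 and 173 CPM in PEO4, a log2 fold change of 0.81 (SE 0.088, adjusted p = 5.01e-06). Untreated B libraries gave 124, 119 and 113 CPM in PEO1 and 129, 140 and 176 CPM in PEO4, a log2 fold change of 0.32 (SE 0.11, adjusted p = 0.0123), with the lowest PEO4 library just above the highest PEO1 library. Without the third PEO4 library the adjusted p was 0.0840. Under PDS, PEO4 went to 117, 139 and 107 CPM at 2 h and to 69.9, 77.9 and 83.6 CPM at 6 h, log2 changes of -0.29 (adjusted p = 0.0208, and 0.154 without the third untreated PEO4 library) and -0.94 (SE 0.11, adjusted p = 3.33e-07). The latter passed 2-fold with scaling by library totals (-1.10) or upper quartile (-1.06). PEO1 fell by 0.26 at 2 h (adjusted p = 0.0437) and by 0.28 at 6 h (adjusted p = 0.0320). With 1 library left out, adjusted p for the PEO1 value at 2 h lay between 0.0549 and 0.143, and for that at 6 h between 0.0401 and 0.113. At 6 h the order of the lines had turned, with B2M lower in PEO4 by 0.34 on the log2 scale (SE 0.11, adjusted p = 0.00819).

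TAP2, the transporter subunit, kept its place above PEO1 and rose in PEO4. It gave 6.74, 8.01 and 7.29 CPM in PEO1 and 32.3, 33.8 and 31.9 CPM in PEO4 of the A pair (log2 fold change 2.15, SE 0.11, adjusted p = 4.02e-09). The untreated B libraries gave 16.4, 17.8 and 17.6 CPM in PEO1 and 35.4, 33.5 and 33.2 CPM in PEO4 (log2 fold change 0.98, SE 0.080, adjusted p = 7.11e-11, just under 2-fold). PEO4 held 30.3, 26.9 and 35.1 CPM at 2 h of PDS (log2 fold change -0.14, adjusted p = 0.0968) and 44.1, 46.4 and 45.6 CPM at 6 h. The latter lay above every other library of the B pair and was up by 0.42 on the log2 scale (SE 0.074, adjusted p = 2.19e-05). In PEO1 the means were 18.5 and 18.7 CPM under PDS against 17.3 CPM in untreated cells, all treated libraries lying just above the untreated ones (log2 fold changes 0.10 and 0.12, adjusted p = 0.311 and 0.231), and with scaling by library totals these 2 values turned to -0.05 and -0.03. At 6 h TAP2 was the 1 gene of the set called between the lines, 2.42-fold higher in PEO4 (log2 1.28, SE 0.075, adjusted p = 1.10e-13).

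TAP1, the partner subunit, had 0 counts in 21 libraries, 4 in the first PEO4 library of the A pair and 1 each in the third untreated library of PEO1 and of PEO4 of the B pair. PSMB9, an interferon-inducible catalytic subunit of the immunoproteasome, is listed at 0 in all 24 libraries. The genes overlap each other on opposite strands, and all stretches of both are on alternate scaffolds, so no level can be read for either.

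TAPBP, which encodes the tapasin that bridges heavy chains to the transporter, had between 9 and 108 counts. The A pair gave 28, 34 and 23 counts in PEO1 (0.642 ± 0.243 CPM) and 108, 62 and 74 in PEO4 (1.90 ± 0.32 CPM), a log2 fold change of 1.58 (SE 0.34, adjusted p = 0.00134). The untreated B libraries gave 21, 10 and 18 counts in PEO1 and 30, 21 and 40 in PEO4, a log2 fold change of 0.94 (SE 0.34, adjusted p = 0.0168). Without the second PEO1 library the adjusted p was 0.115. Without the first PEO1 library the gene was called (1.23, adjusted p = 0.00894), as it was without some of the other libraries. In PEO4 under PDS it gave 0.806, 0.396 and 0.504 CPM at 2 h and 0.262, 0.275 and 0.359 CPM at 6 h, called log2 changes of -1.30 (SE 0.33, adjusted p = 0.00117) and -2.23 (SE 0.36, adjusted p = 6.59e-06). PEO1 changed by -0.69 (adjusted p = 0.129) and -0.84 (adjusted p = 0.0676), and its untreated and treated libraries overlapped. Without the second untreated PEO1 library the 6 h value was called (-1.13, adjusted p = 0.0211). All exonic stretches of TAPBP lie on alternate scaffolds, so where its counts came from is not known.

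**Figure D3:**
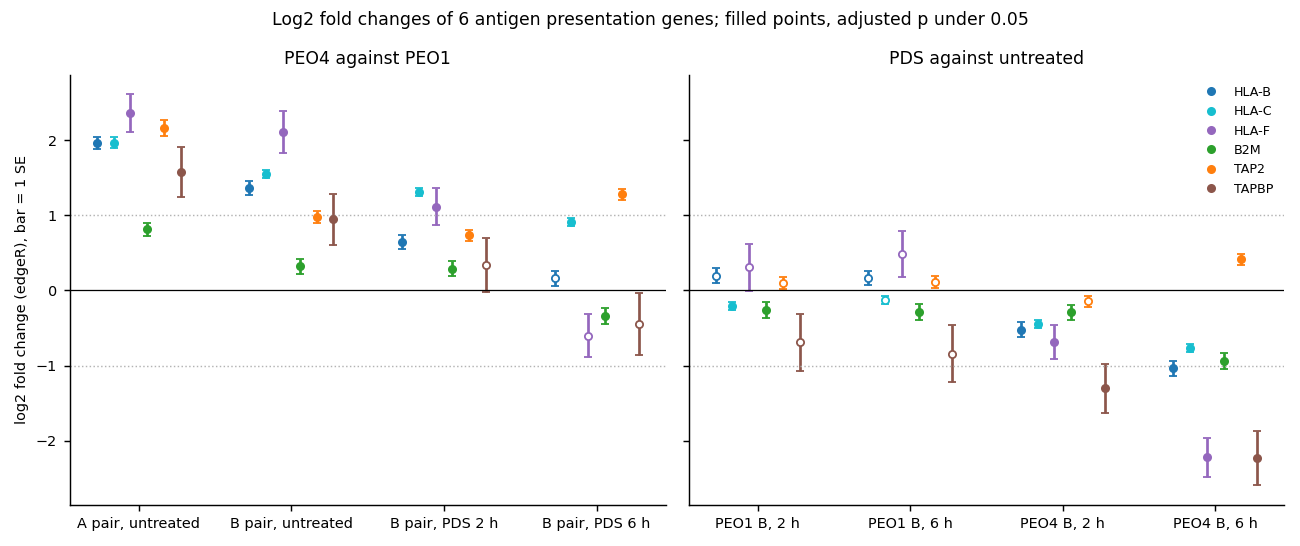
Log2 fold changes of the 6 tested genes from edgeR with 1 SE, for PEO4 against PEO1 (left) and for PDS against untreated cells of the B pair (right); filled points have an adjusted p under 0.05 and dotted lines mark 2-fold. The difference between lines is smaller at each time of PDS for HLA-B and HLA-C, while for TAP2 it goes from 0.98 to 0.73 at 2 h and 1.28 at 6 h.

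The share of all genes called gives the background for these counts. Between the untreated lines of the A pair 5 of the 6 tested genes were called, all higher in PEO4, where 25.8% of 15882 genes were called in either direction. In the B pair 3 of 6 were called in untreated cells (background 24.8% of 17020 genes), 2 of 6 at 2 h (26.5%) and 1 of 6 at 6 h (23%). In PEO4, PDS gave 1 call of 6 at 2 h, TAPBP (17.4%), and 3 of 6 at 6 h, HLA-B, HLA-F and TAPBP (22.6%), all lower. TAPBP, for which the source of the counts is not known, is also among the 5 calls of the A pair. From 2 h to 6 h HLA-F alone was called in PEO4 (2039 of 17020 genes, 12%). By adjusted p alone, 6 of 6 passed between the untreated lines of the A pair (61.6%) and of the B pair (68.6%), 5 at 2 h (72.9%) and 3 at 6 h (68.6%). In the same way, 6 of 6 passed in PEO4 between 2 h and 6 h (60.1%), 5 of 6 genes passed in PEO4 at 2 h (65.3%) and 6 of 6 at 6 h (69.8%), where most expressed genes also passed. In PEO1, PDS gave 0 calls of 6 at 2 h (7.57%), at 6 h (8.13%) and between the time points (0.17%) with edgeR, and DESeq2's Wald test also gave 0. By adjusted p alone 2, 1 and 0 of the 6 passed there (52.6%, 53% and 6.94%), and at an unadjusted p under 0.05 the counts were 2, 3 and 0. These comparisons share libraries: the untreated PEO4 libraries of the B pair enter both the comparison of lines and the response of PEO4.

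Whether the lines responded differently to PDS was tested by the interaction, the response of PEO4 minus that of PEO1. At 6 h it was called for HLA-B at -1.20 (SE 0.14, adjusted p = 1.01e-06), HLA-F at -2.71 (SE 0.40, adjusted p = 5.88e-06) and TAPBP at -1.39 (SE 0.54, adjusted p = 0.0358), 3 of 6 tested genes where 14.8% of all genes were called. The TAPBP call was lost with DESeq2's Wald test (adjusted p = 0.0559) and in 6 of the fits that left out 1 library, the weakest of them without the second untreated PEO1 library (log2 difference -1.09, adjusted p = 0.0997). HLA-C at -0.64 (SE 0.078, adjusted p = 3.81e-07), B2M at -0.66 (SE 0.15, adjusted p = 0.00142) and TAP2 at 0.30 (SE 0.11, adjusted p = 0.0276) passed by adjusted p without reaching 2-fold (47.4% of all genes). At 2 h none was called by edgeR (1876 of 17020 genes, 11%), while 3 of 6 passed by adjusted p alone (37.3%), namely HLA-B, HLA-C and HLA-F, and 1 (HLA-F) was called with DESeq2's size factors, 0 with its Wald test. At an unadjusted p under 0.05, 4 of 6 passed.

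A joint fit of the 12 untreated libraries compared the line difference of the A pair with that of the B pair. TAP2 was called, with a difference 1.18 larger on the log2 scale in the A pair (SE 0.12, adjusted p = 1.94e-06), 1 of 6 tested genes where 13.8% of all genes were called. HLA-B (0.59, SE 0.15, adjusted p = 0.00505), HLA-C (0.42, SE 0.098, adjusted p = 0.00323) and B2M (0.49, SE 0.15, adjusted p = 0.0177) passed by adjusted p alone (36.3%). The BRCA2 state of PEO1, the medium, and the time and batch of library making cannot be told apart between the pairs.

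Markers of other cell types also differed between conditions, not always in the same direction as the class I genes. The summed leukocyte markers, led by CD68, went from 33.8 to 57.3 CPM in untreated PEO4 of the B pair to 73.6 to 84.0 CPM at 2 h and 70.2 to 79.7 CPM at 6 h, and in PEO1 from 39.9 to 42.4 CPM to 47.4 to 50.9 CPM and 47.3 to 49.5 CPM. For fibroblast and endothelial markers, the summed level was 5.66 to 7.97 CPM in untreated PEO1 and 31.3 to 33.2 CPM in untreated PEO4 of the B pair, then 8.88 to 12.9 CPM at 2 h and 3.48 to 4.55 CPM at 6 h in PEO4, against 4.09 to 4.29 CPM and 3.64 to 4.31 CPM in PEO1. COL1A1, a collagen chain, led the list in untreated PEO4 at 22.1 ± 7.5 CPM (SD, n = 3), while the endothelial cadherin CDH5 was at 0 in all PEO4 libraries of the B pair. In the A pair the sum was 33.0 to 38.2 CPM in PEO1 and 9.15 to 14.4 CPM in PEO4, the reverse order. COL1A1 carried that sum, at means of 30.5 and 8.70 CPM, while COL1A2, another collagen chain, went from 0.175 CPM in PEO1 to 2.68 CPM in PEO4, and 1 of the list was called higher and 2 lower. Whether these markers had a part in the results was not tested.

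The regulators of class I genes outside the MHC could be read without the limit above, since almost no stretch of their exons lay on alternate scaffolds. IRF1, a transcription factor induced by interferon, was higher in PEO4 by 1.46 on the log2 scale in the A pair (SE 0.080, adjusted p = 1.06e-08) and by 0.78 in the untreated B pair (SE 0.090, adjusted p = 3.41e-08). At 6 h of PDS it moved in opposite directions, by -1.02 in PEO4 (adjusted p = 2.79e-10) and by 0.46 in PEO1 (adjusted p = 0.000113). NLRC5, the class I transactivator, did not follow the heavy chains in untreated cells of the B pair, at 7.75 ± 1.03 CPM in PEO1 and 7.70 ± 1.63 CPM in PEO4 (log2 -0.01, SE 0.15, adjusted p = 0.936). In PEO4 it rose to 12.6 ± 2.3 CPM at 2 h (log2 0.71, adjusted p = 7.65e-05) and then fell to 4.09 ± 0.22 CPM at 6 h, a log2 change of -1.62 from 2 h (SE 0.14, adjusted p = 8.90e-10). NFKB1, the p50 precursor of NF-kB, fell by 1.31 at 2 h in PEO4 (SE 0.11, adjusted p = 1.45e-08).

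Over the list of 13 class I regulators, 4 were called higher and 0 lower in PEO4 of the A pair, where 25.8% of all genes were called (median log2 fold change 0.369, against -0.0061 over all genes). In the untreated B pair 1 was called higher and 0 lower (24.8%), with a median of 0.245 (all genes -0.0011). In PEO4 at 6 h of PDS 0 were called higher and 2 lower, IRF1 among them (22.6%), with a median of -0.231 (all genes -0.0281). By edgeR, 0 were called in PEO1 at 6 h (8.13%; median 0.0628, against -0.0268). By adjusted p alone, 3 were higher and 2 lower in PEO1 at 2 h (52.6% of all genes) and 5 higher and 3 lower at 6 h (53%).

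**Figure D4:**
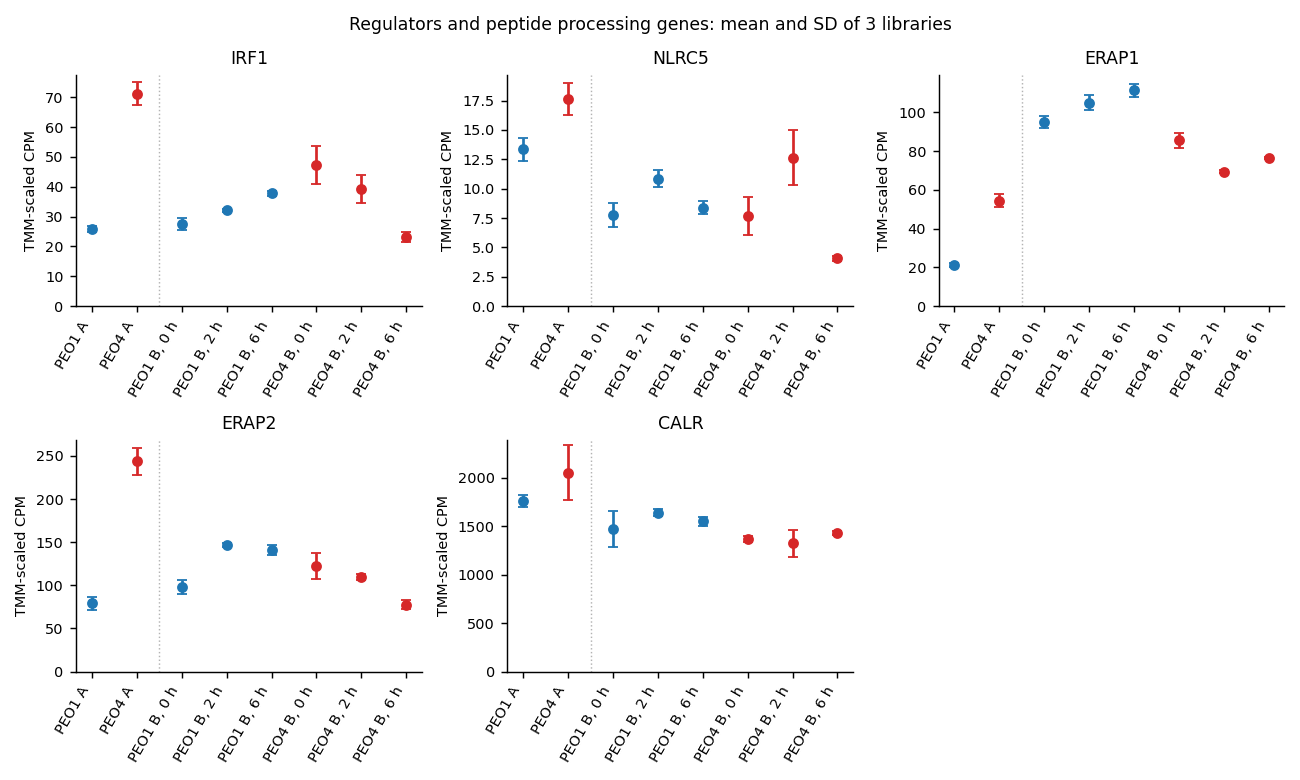
Mean and SD over 3 libraries of TMM-scaled CPM for IRF1, NLRC5, ERAP1, ERAP2 and CALR in the 8 conditions (blue, PEO1; red, PEO4; dotted line between the separately scaled A and B tables; 0 h, untreated). IRF1 falls from 47.3 to 23.3 CPM in PEO4 under PDS and rises from 27.5 to 37.9 CPM in PEO1, while CALR stays between 1325 and 1638 CPM throughout the B pair.

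Of the 10 genes of peptide trimming and chaperoning, 4 were called higher and 0 lower in PEO4 of the A pair (25.8% of all genes), the largest being ERAP2 (1.62), ERAP1 (1.37) and SPPL3 (1.11) on the log2 scale (list median 0.622). In the untreated B pair 1 was called (24.8% of all genes), the tapasin-related TAPBPL (1.28, SE 0.14, adjusted p = 6.86e-09), and the list median was 0.0339. The aminopeptidase ERAP1 was slightly lower in PEO4 there, at 85.6 ± 4.0 CPM against 95.0 ± 2.9 CPM in PEO1 (log2 -0.15, SE 0.051, adjusted p = 0.0119). The line difference of ERAP1 was 1.51 (SE 0.10, adjusted p = 9.18e-09) larger on the log2 scale in the A pair than in the B pair, and that of ERAP2 was 1.30 larger (SE 0.14, adjusted p = 1.74e-06). At 6 h of PDS, TAPBPL was the 1 gene of this list called in PEO4 (22.6% of all genes), with a log2 change of -1.08 (SE 0.13, adjusted p = 4.29e-08). ERAP2 rose by 0.52 in PEO1 (SE 0.072, adjusted p = 1.30e-06) and fell by 0.66 in PEO4 (SE 0.072, adjusted p = 1.43e-08) at that time, and the interaction was called at -1.18 (SE 0.10, adjusted p = 1.58e-09). The chaperone calreticulin (CALR) gave log2 fold changes of 0.08 in PEO1 (SE 0.075, adjusted p = 0.394) and 0.07 in PEO4 (SE 0.075, adjusted p = 0.445) at 6 h.

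Among 7 immunoproteasome and proteasome regulator genes, 4 were called higher and 1 lower in PEO4 of the A pair (25.8% of all genes, list median 1.15), and 1 higher and 1 lower in the untreated B pair (24.8%, list median 0.316). PSMB8, the neighbour of PSMB9, was called higher there but had all its stretches on alternate scaffolds and 1 to 98 counts. In untreated PEO1 of the B pair it had 1 or 2 counts, and no fold is given for it. PSMF1, a proteasome inhibitor, was called lower in PEO4 in both pairs (log2 -1.54 in the A pair and -1.29 in the B pair). Of the subunits outside the MHC, PSMB10 was higher by 1.43 in the A pair (SE 0.14, adjusted p = 1.53e-06) and PSME2 by 1.36 (SE 0.075, adjusted p = 1.22e-08). Neither was called in the untreated B pair, at 0.32 (adjusted p = 0.0356) and 0.88 (adjusted p = 4.44e-13). At 6 h of PDS 0 of the 7 were called in PEO4 by edgeR (22.6% of all genes), with 3 higher and 3 lower by adjusted p alone (69.8%). In the interaction at 6 h 3 of the 7 were called lower (14.8%), namely PSMB8, PSMB10 (-1.17, SE 0.18, adjusted p = 1.37e-05) and PSME1 (-1.02, SE 0.098, adjusted p = 1.03e-08). The 10 genes of the constitutive proteasome went up by adjusted p alone at 6 h in PEO1 (10 of 10, where 53% of all genes passed in either direction) and PEO4 (10 of 10, where 69.8% passed), by a median of 0.520 and 0.847 on the log2 scale, while 1 of them, PSMA3, passed 2-fold in PEO4 (1.04, SE 0.079).

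Of 15 class I-like molecules outside the classical set, 13 were tested, and 8 were called higher and 1 lower in PEO4 of the A pair (25.8% of all genes, list median 1.19), against 4 higher and 1 lower in the untreated B pair (24.8%, median 0.826). The gene called lower was ULBP2, a ligand of the activating receptor NKG2D, in both pairs (-1.05 and -1.70). FCGRT, the heavy chain of the neonatal Fc receptor, which also pairs with B2M, stood at 2.87 ± 0.43 CPM in PEO1 and 26.3 ± 4.4 CPM in PEO4 of the untreated B pair. In PEO4 it dropped to 4.09 ± 0.51 CPM at 6 h of PDS (log2 -2.69, SE 0.16, adjusted p = 4.68e-12). At that time 5 of the 13 were called lower and 1 higher in PEO4 (22.6% of all genes, median -0.824), the lower ones led by MR1, which presents vitamin metabolites (-2.76, SE 0.30, adjusted p = 9.03e-09, on 14 to 20 counts at 6 h), and FCGRT. In PEO1 2 were called lower and 1 higher (8.13%, median -0.0415). Of the 15 genes, 3 had at least 90% of their stretches on alternate scaffolds. MICA was among them, at 96.3%, and went from 2.36 CPM in untreated PEO4 of the B pair to 6.33 CPM at 6 h.

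Of 8 genes that govern surface turnover of class I molecules, MARCHF4 is an E3 ubiquitin ligase that takes class I molecules off the surface. It ran opposite to HLA-B and HLA-C between the untreated lines and in PEO4 at 6 h of PDS. In PEO1 MARCHF4 also rose at 6 h, where neither heavy chain was called. It stood at 22.7 ± 2.4 CPM in PEO1 and 0.755 ± 0.442 CPM in PEO4 of the untreated B pair (log2 -4.93, SE 0.23, adjusted p = 2.03e-12) and was also lower in PEO4 of the A pair (log2 -5.66, SE 0.52, adjusted p = 1.05e-06). Untreated PEO4 held 7 to 24 counts of MARCHF4 in the B pair and 0 to 4 in the A pair, so the size of folds against it is uncertain. At 6 h of PDS MARCHF4 reached 20.6 ± 1.3 CPM in PEO4 (log2 4.79, SE 0.23, adjusted p = 4.09e-12) and 55.1 ± 1.3 CPM in PEO1 (log2 1.28, SE 0.13, adjusted p = 2.85e-07). Over the list, 1 was called higher and 2 lower in PEO4 at 6 h (22.6% of all genes, median -0.255), the lower ones being SUSD6 (-1.54) and MARCHF9 (-1.18), and 0 higher and 1 lower between the untreated lines of the B pair (24.8%, median -0.0923). Of 12 class II genes, 8 had at most 3 counts in every library, 7 of the 12 had at least 90% of their stretches on alternate scaffolds, and 2 were tested in the B pair. CD74, the invariant chain, was called lower in untreated PEO4 in both pairs (log2 -2.49 in the A pair and -2.08 in the B pair).

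Across the 18 libraries of the B pair, the genes of the set did not vary alike. Pearson's r of log2 CPM was 0.899 between HLA-B and HLA-C, 0.903 between HLA-B and HLA-F and 0.806 between B2M and TAPBP. For TAP2 it was 0.803 with HLA-C and 0.558 with HLA-B, but -0.16 with B2M. These points share 6 conditions and the depth difference of the PDS libraries, and r is given as a description. Among 9611 protein-coding genes with a mean log2 CPM of at least 3, the genes most like HLA-B were HDAC11 (r = 0.988), IFITM3 (0.984) and MX1 (0.983), and those most like HLA-C were SLC38A10 (0.997), DGAT1 (0.992) and FBXW4 (0.992). HLA-F was most like IFI16 (0.946), PLSCR1 (0.936) and PLAT (0.934), B2M like NINJ1 (0.964), LRRC41 (0.944) and MEGF6 (0.943), TAP2 like BAG2 (0.987), NDUFAF6 (0.985) and CLTC (0.985), and TAPBP like SMO (0.905), SEL1L3 (0.886) and AGRN (0.878).

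The order of the 6 conditions of the B pair also separated the genes. HLA-B and HLA-C were highest in untreated PEO4, then in PEO4 at 2 h and at 6 h, each step without overlap of libraries, and the 6 h libraries of HLA-B overlapped with those of PEO1 while those of HLA-C did not. For HLA-F the steps at the top were untreated PEO4 and PEO4 at 2 h, which overlapped, and PEO4 at 6 h was lowest in mean. B2M was lowest in PEO4 at 6 h, apart from all other libraries of the B pair. For TAP2 the same condition was the highest.

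Sequences before the gene starts are given for HLA-B and HLA-C, for their light chain and for TAP2. HLA-B and HLA-C both fell in PEO4 at 6 h of PDS, where TAP2 rose. In PEO1 at 2 h HLA-B changed by 0.20 and HLA-C by -0.21 on the log2 scale (edgeR, adjusted p = 0.0964 and 0.00285). Each sequence is from RefSeq (GRCh38.p14) and holds the 250 bases before the gene start, 5′ to 3′ on the gene's strand. RefSeq promoter windows (250 bases before to 50 after the start) were found for 8 of the 9 genes, all but HLA-E. Capitals mark matches, on either strand, to the core of the interferon-stimulated response element (TTTCNNTTT), to a GAS element (TTCNNNGAA), to the NF-kB core of enhancer A (GGGANTCCC), to the TGACG element of the X2 box and to the Y box (CCAAT). The stretches are at chr6:31357180-31357429 for HLA-B, chr6:31272093-31272342 for HLA-C and chr6:32838740-32838989 for TAP2, all on the minus strand, and at chr15:44711267-44711516 on the plus strand for B2M.
HLA-B: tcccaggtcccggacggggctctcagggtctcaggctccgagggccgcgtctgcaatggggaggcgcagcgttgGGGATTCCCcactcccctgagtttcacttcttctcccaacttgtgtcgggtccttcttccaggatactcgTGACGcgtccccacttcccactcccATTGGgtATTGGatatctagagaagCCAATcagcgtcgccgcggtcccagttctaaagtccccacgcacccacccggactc
HLA-C: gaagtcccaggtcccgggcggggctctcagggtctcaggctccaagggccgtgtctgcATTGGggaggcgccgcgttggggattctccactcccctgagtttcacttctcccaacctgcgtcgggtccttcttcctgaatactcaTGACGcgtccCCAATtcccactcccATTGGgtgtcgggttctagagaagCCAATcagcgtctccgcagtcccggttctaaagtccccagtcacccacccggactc
B2M: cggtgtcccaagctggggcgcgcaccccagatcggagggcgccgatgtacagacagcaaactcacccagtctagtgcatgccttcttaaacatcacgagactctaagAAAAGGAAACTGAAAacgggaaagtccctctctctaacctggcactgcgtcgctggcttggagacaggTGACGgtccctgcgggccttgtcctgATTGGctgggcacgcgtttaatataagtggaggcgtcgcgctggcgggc
TAP2: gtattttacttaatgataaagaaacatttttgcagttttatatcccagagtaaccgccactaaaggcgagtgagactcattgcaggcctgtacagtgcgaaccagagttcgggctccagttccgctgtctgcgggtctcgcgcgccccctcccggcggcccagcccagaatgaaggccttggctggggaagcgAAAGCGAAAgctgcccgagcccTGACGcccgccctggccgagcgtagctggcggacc

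HLA-B held the NF-kB core once, which 0.877% of 35116 RefSeq promoter windows hold, together with 1 TGACG element and 3 Y box matches. HLA-C held 1 TGACG element and 4 Y box matches. B2M held 2 overlapping matches to the response element core, which 10.5% of all windows hold, and TAP2 held 1. Over the 8 genes with a window, 5 held the response element core, 5 the TGACG element (24.6% of all windows), 6 the Y box (34.6%) and 1 the GAS element (7.66%). A motif of 4 runs of at least 3 G with 1 to 7 bases between, the pattern of G-quadruplex DNA that PDS binds, was in windows of TAP1, TAP2 and TAPBP, 3 of 8 genes, and in 25.0% of all windows. In these counts a gene was included if any of its windows held the motif, while the shares are of single windows. TAP1 had 2 windows, of which 1 held the motif of G runs. These matches describe the letters of the windows and no binding was measured here.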

How the data were processed

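Counts per gene were analysed for 24 RNA-seq libraries in 8 conditions of 3 replicates. The authors deposited whole-number counts without normalization, in a table of 6 libraries (A pair) and one of 18 (B pair). Per the labels, FastQC, fastp, STAR and featureCounts were used with hg38. Versions, annotation, strand and the treatment of multi-mapping reads are not given in the sources used here. 2 lines of the first table and 1 of the second could not be read and were left out, and every column of values was used.

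Tests used edgeR 4.0.16 under R 4.3.3 (filterByExpr with a minimum count of 10 and a minimum total of 15, TMM, robust quasi-likelihood fit, 1 mean per condition), on 15882 genes of the A table, 17020 of the B table and 16888 of the 12 untreated libraries fitted jointly. Calls required an absolute log2 fold change over 1 together with an adjusted p (Benjamini-Hochberg, all genes) under 0.05. Replicates differed by more than sampling noise (lowest chi-square per gene 2.13), so none was a duplicate. Exons of the Ensembl canonical transcripts of GENCODE release 44 were compared with the alternate scaffolds of hg38 in stretches of 75 bases. Totals of 18699929 to 63882077 counts limit what can be seen for genes with few counts. Promoter windows came from RefSeq.

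The 9 genes and all lists were chosen with earlier results of these data known. Genes named beyond the 9 were PSMB8, NLRC5, IRF1, ERAP1, ERAP2 and CALR, up to 3 called members of each list by size of change in a comparison, markers, and the 3 genes most alike in log2 CPM. As alternatives, scaling used library totals, size factors from DESeq2 or the upper quartile, and the others were DESeq2 1.42.0 with its Wald test, no filter on low counts, adjusted p alone, a term for the replicate number, only the groups compared, and each library left out. Some items are not reported here. Scripts were tested on simulated data.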

Additional observations from a re-analysis of the deposited data

Results flagged for a closer look

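The following values were set aside because a test of the difference between groups passed at an adjusted p under 0.05 (edgeR, over all genes). For the response to PDS in PEO4 minus that in PEO1 of the B pair they were, on the log2 scale at 2 h, -0.72 for HLA-B, -0.24 for HLA-C and -0.99 for HLA-F, the last with an adjusted p of up to 0.147 when 1 library was left out. At 6 h they were -1.20 for HLA-B, -0.64 for HLA-C, -2.71 for HLA-F, -0.66 for B2M, 0.30 for TAP2 and -1.39 for TAPBP. For the difference between PEO4 and PEO1 in the A pair minus that in the B pair, untreated, they were 0.59 for HLA-B, 0.42 for HLA-C, 0.49 for B2M and 1.18 for TAP2. Depth and ribosomal RNA share moved with PDS in both lines, and their part in these values was not tested.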

How the results depend on the processing

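Counts of called genes, of 6 tested, stayed within 1.5 times their value under scaling by library totals or upper quartile, DESeq2's Wald test, a fit of only the groups compared and a term for the replicate number. Without the filter on low counts, 2 genes were called in PEO4 between 2 h and 6 h, and with DESeq2's size factors 1 was called (HLA-F) in the interaction at 2 h. By adjusted p alone, 6 passed between the untreated lines of the B pair, 5 at 2 h and 3 at 6 h, 2 and 1 in PEO1 at 2 h and 6 h, 5 and 6 in PEO4, 6 in PEO4 between the times, 3 and 6 in the interactions and 4 in the joint fit. With each library left out, the count ranged from 0 to 1 in PEO1 at 6 h (TAPBP, without its second untreated library), 2 to 4 in PEO4 at 6 h, 1 to 2 in PEO4 between the times, 0 to 1 in the interaction at 2 h and 2 to 3 in that at 6 h. Between the untreated lines of the B pair the count ranged from 3 to 4, with TAPBP or TAP2 added. Library totals moved the median of all genes by up to -0.188 in PDS comparisons and reversed TAP2 in PEO1, to -0.0473 at 2 h and -0.0299 at 6 h. Leaving out 1 library reversed uncalled values, over ranges of -0.0879 to 0.0182 for HLA-B, -0.0608 to 0.0222 for B2M, -0.0093 to 0.047 for TAP2 and -0.336 to 0.0806 for TAPBP in PEO1 between the times, -0.14 to 0.115 for B2M in the interaction at 2 h and -0.0666 to 0.595 for HLA-F in the joint fit. The causes were not tested. Replicate numbers did not pair the libraries (0 of 16 group pairs had every correlation of deviations over 0.1, range -0.158 to 0.134), and with the replicate block 5 genes stayed called in the A pair and 3 in the untreated B pair, with no call changed.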
